A study of Mus musculus with 2 samples.

Results

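The 10 genes described here are early growth response (EGR) factors Egr1, Egr2 and Egr3, the NR4A nuclear receptors Nr4a1, Nr4a2 and Nr4a3, the antiproliferative genes Btg1 and Btg2, and the immediate early response genes Ier2 and Ier3. They were found by gene name among the non-control spots of a mouse expression array, where they had 15 of 41174 probes and 24 of 43379 spots, and they are 10 of 27337 genes on it. The first array held Jam3-null cells and the second held WT cells, both from female mice with acute myeloid leukaemia driven by MLL-AF9. In both groups the cells carried the MLL-AF9-YFP construct and were sorted from bone marrow as Mac-1-positive, c-Kit-positive leukemia-initiating cells, those that can start the disease anew. Jam3 encodes a junctional adhesion molecule of the cell surface. The label of each array names 3 mice. The labels used here state neither how the Jam3 allele was made nor the age of the mice. With 1 array per genotype there is no replicate check and no p-value for any difference, precision is limited by having so few arrays, and fewer cells of a type cannot be told apart from less RNA per cell.

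Immediate early genes are transcribed within minutes of a stimulus without new protein synthesis, mainly through the serum response factor with its ternary complex partners, through CREB and through NF-kB, and their short-lived mRNAs decay soon after. EGR proteins are zinc finger transcription factors, and Egr1 is known for its part in macrophage differentiation and in holding haematopoietic stem cells at rest. NR4A proteins are orphan nuclear receptors that bind DNA without a ligand, and mice that lack both Nr4a1 and Nr4a3 develop acute myeloid leukaemia. BTG proteins slow cell division and bring the CCR4-NOT deadenylase to mRNAs.

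On the Jam3-null array Btg2 and Ier3 had signals well over 2-fold those of the WT array, Nr4a1 and Ier2 were short of 2-fold higher, and Egr2 was lower. The values were processed signals in intensity units, which are linear, background-subtracted brightness. For the comparison each was put on a log2 scale relative to the 75th percentile of its array, 667.8 in Jam3-null cells against 713.9 in WT cells, so a positive difference means a higher signal in Jam3-null cells. Of the 10 genes, 8 were well above background on both arrays, and Egr3 and Nr4a3 were so on neither. At least 2-fold higher were 2 of the 8, against 10.3% of all 14361 genes measured on both arrays, and 0 of the 8 were at least 2-fold lower, against 8.59%. At 1.5-fold, 4 of the 8 were higher and 1 was lower, against 18.4% and 20.3% of all genes. At 3-fold, 1 was higher and 0 were lower, against 4.94% and 2.93%. The median log2 difference over the 8 genes was 0.65, and over all genes it was -0.07. The 8 thus lay on both sides of the median of all genes, from -0.72 for Egr2 to 1.87 for Btg2.

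**Figure D1:**
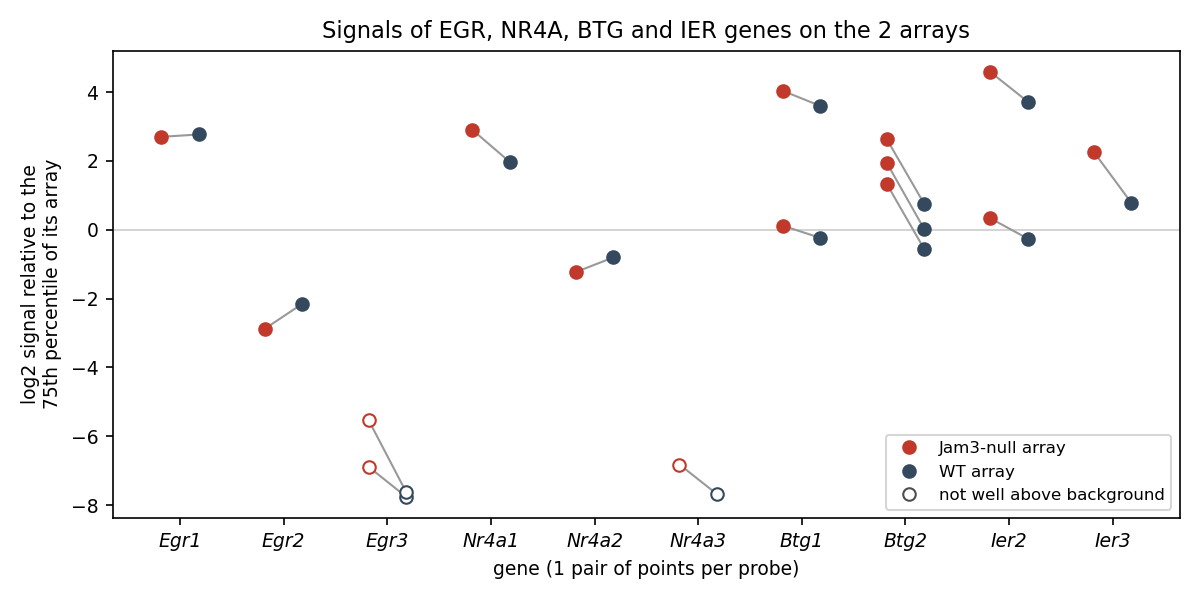
Log2 signal relative to the 75th percentile of the array (vertical axis) for every probe of the 10 genes (horizontal axis), with the Jam3-null array on the left of each pair and the WT array on the right. Lines join the values of 1 probe, and open circles mark signals not well above background, which are those of Egr3 and Nr4a3. The lines of Btg2 and Ier3 slope down most among the measured genes.

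The error given with a difference is the SD from the scanner software's error model. It was about 10% of the signal for the bright spots, which sets an SD near 0.20 for a log2 difference. It covers measurement only and leaves out the spread between mice, sorts and labelling reactions. None of the 24 spots was flagged as an outlier or saturated. Levels of different probes are not compared, since each probe binds with its own strength.

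Btg2 had the largest difference of the 8 measured genes. This antiproliferative gene, known to be induced by p53 and by differentiation signals, was read by 3 probes along NM_007570, and their sequences are given here for 2 because they lie in or end at the coding part of the mRNA. The first, at position 284 of the transcript (chr1:135974181-135974240, mm9, minus strand), is shown whole, and the second, at position 549 (chr1:135973916-135973975), is shown up to the stop codon, in capitals.
Btg2 probe at 284: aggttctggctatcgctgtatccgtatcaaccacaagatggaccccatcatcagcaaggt
Btg2 probe at 549: aagaactatgtgatggccgtctccagcTAG
The probe at position 549, the brightest, had a processed signal of 4145 in Jam3-null cells against 1211 in WT cells. The probe at 284 had 1683 in Jam3-null cells against 487.3 in WT cells. The third probe, at position 2371 near the 3' end (chr1:135972094-135972153), had 2574 in Jam3-null cells against 728.8 in WT cells. All 3 probes were thus higher on the Jam3-null array, by nearly the same ratio along the transcript. Their log2 differences were 1.88, 1.87 and 1.92 in transcript order, each with an error-model SD of 0.20, so they differed from each other by less than that error. The fold of the brightest probe was 3.66, and 96.3% of all genes measured had a smaller log2 difference than its 1.87.

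Btg1, the close relative of Btg2, known with it for keeping lymphocytes at rest, had 2 probes on NM_007569. The brighter one, at position 1477 (chr10:96081915-96081974, mm9), had a signal of 10925 in Jam3-null cells against 8632 in WT cells. The one at position 821 (chr10:96081259-96081318) had 723.6 in Jam3-null cells against 605.5 in WT cells. Both were higher on the Jam3-null array by a small amount, with log2 differences of 0.44 ± 0.20 and 0.35 ± 0.20 (error-model SD), and 23.3% of all genes had a larger difference than the brighter probe. Other members of the family went both ways. Tob1 was 2.17-fold higher on the Jam3-null array (1145 against 563.7 on the WT array) and Tob2 was 1.73-fold higher (4038 against 2500). Btg3 was lower, at a log2 difference of -0.69, and Btg4 gave no signal well above background in either genotype. The 5 measured genes of the family, Btg1 and Btg2 included, had a median of 0.79. At least 2-fold higher were 2 of them, against 10.3% of all genes, and 0 were as far below, against 8.59%.

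**Figure D2:**
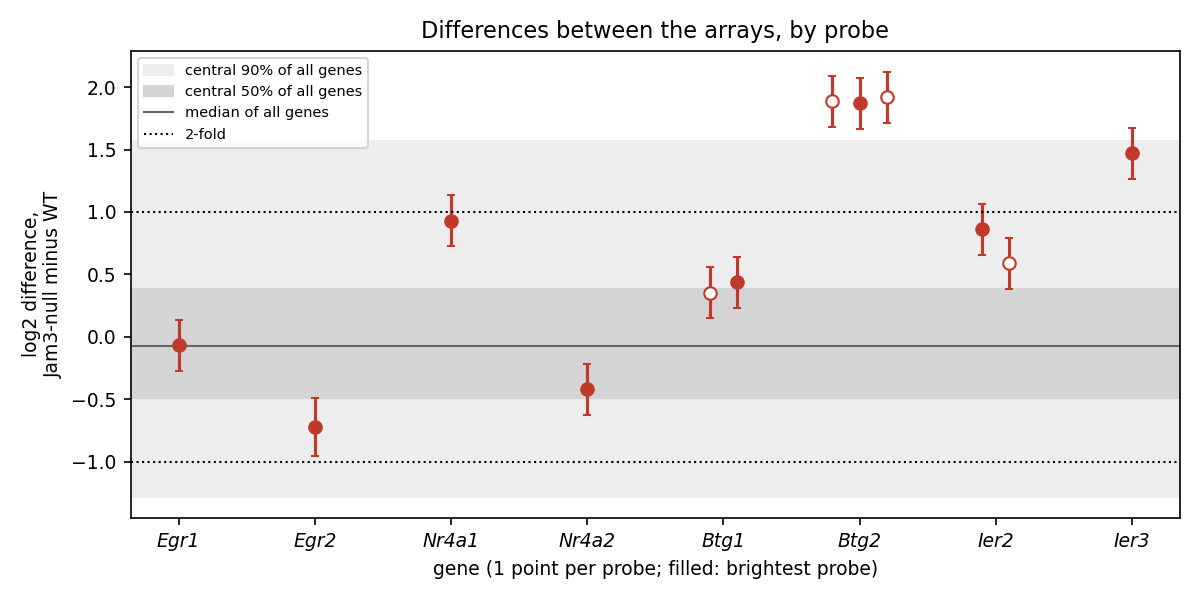
Log2 difference, Jam3-null minus WT (vertical axis), of each probe of the 8 measured genes (horizontal axis), with bars of 1 error-model SD, filled for the brightest probe of a gene. The shaded bands hold the central 50% of all genes measured (from -0.49 to 0.39) and the central 90% (from -1.28 to 1.57). The 3 Btg2 probes lie above the wider band, and Egr1 lies at the median.

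IER genes were both higher on the Jam3-null array. Ier3, also called IEX-1, an NF-kB-responsive gene that acts on cell survival, had 1 probe on NM_133662 (chr17:35959528-35959587, mm9). Its signal was 3190 in Jam3-null cells against 1231 in WT cells. The log2 difference was 1.47 ± 0.20 (error-model SD), a fold of 2.77, and 5.66% of all genes had a larger one. Ier2, which encodes a nuclear protein induced by growth factors, had 2 probes. The brighter one, on NM_010499 (chr8:87185211-87185245), had 16008 in Jam3-null cells against 9430 in WT cells, a fold of 1.81 (log2 difference 0.86 ± 0.20). The other was designed on the longer cDNA AK032692 (chr8:87183623-87183681) and had 841.5 in Jam3-null cells against 597.7 in WT cells, a fold of 1.51 (0.59 ± 0.20). Both Ier2 probes pointed the same way. The gap between their differences was 1 to 2 times the error-model SD of a single difference, and the gap carries the error of both.

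The NR4A receptors did not move together. Nr4a1, which encodes Nur77, had 1 probe on NM_010444 (chr15:101105071-101105130, mm9), with 5004 in Jam3-null cells against 2805 in WT cells. It was 1.91-fold higher on the Jam3-null array (log2 difference 0.93 ± 0.20), just under the 2-fold threshold. With quantile normalization, cyclic loess or the authors' value table it lay at or just past 2-fold, at 1.001, 1.07 and 1.02. Nr4a2, which encodes Nurr1, had 1 probe on NM_013613 (chr2:56960699-56960758) and the opposite direction, with 285.3 in Jam3-null cells against 408.5 in WT cells (log2 difference -0.42 ± 0.21). Nr4a3, which encodes NOR-1, had 1 probe (NM_015743, chr4:48080690-48083876) with signals of 5.92 in Jam3-null cells against 3.49 in WT cells, not well above background on either, and no fold is given. Of the partners that NR4A proteins can bind as heterodimers, Rxra was 8.11-fold higher on the Jam3-null array, with 2050 there and 270.2 on the WT array. Rxrb was at -0.22 in log2, and Rxrg gave no signal well above background in either genotype.

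Neither measured EGR factor, Egr1 or Egr2, was higher in Jam3-null cells with 75th-percentile scaling. Egr1 had 1 probe (NM_007913, chr18:35024395-35024454, mm9) with 4338 in Jam3-null cells against 4864 in WT cells. Its log2 difference of -0.07 ± 0.20 equalled the median of all genes to 2 decimals, and its sign turned with the scaling, from -0.13 with spike-in scaling to 0.08 with cyclic loess. Both Egr3 probes (chr14:70478827-70478886 and chr14:70481979-70482038) gave no signal well above background in either genotype. The brighter had 14.4 in Jam3-null cells against 3.66 in WT cells, and the other had 5.65 and 3.32 in the same order. Egr4, a relative seen on the WT array only (12.9 in Jam3-null cells against 52.8 in WT cells), was at least 1.91-fold lower in Jam3-null cells, the bound taking the least well-detected signal of that array as its floor (1.31-fold after normexp correction). Some probes failed the flag above that floor, such as that of Jam3 with 28.1 in Jam3-null cells. This bound, and each one below for a gene seen on 1 array only, is therefore approximate. Nab1 and Nab2 encode corepressors that bind EGR proteins, and Nab2 is itself an EGR target. Nab1 was 1.55-fold higher on the Jam3-null array, with 3784 there and 2612 on the WT array. Nab2 was detected only in Jam3-null cells (94.8, against 6.97 on the WT array) and was at least 6.57-fold higher there, a bound of 2.44-fold after normexp correction. Wt1 gave no signal well above background in either genotype.

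Egr2 was printed in 10 spots of 1 probe (NM_010118, chr10:67004758-67004817, mm9), the only one of the 10 genes with repeat spots. On the Jam3-null array the spots had a lowest signal of 79.9, a median of 90.7 and a highest of 103.7, and on the WT array they had 147.5, 159.8 and 180.2. The spots of the arrays did not overlap, and each of the 10 was lower on the Jam3-null array than its partner at the same place. How many other probes with repeat spots were separated in this way was not counted, so the separation is not particular to Egr2 on these values. The mean was 91.5 ± 6.95 in Jam3-null cells against 161.2 ± 9.99 in WT cells (SD over 10 spots of 1 hybridization each, not over samples). The log2 difference was -0.72 with an SD of 0.11 over the spot pairs and an error-model SD of 0.23. Over the 127 probes of the array with 3 or more measured spots, the median of that spot SD was smaller, at 0.04. After normexp background correction, whose offset of 50 is of the order of this signal, the log2 difference was -0.43.

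**Figure D3:**
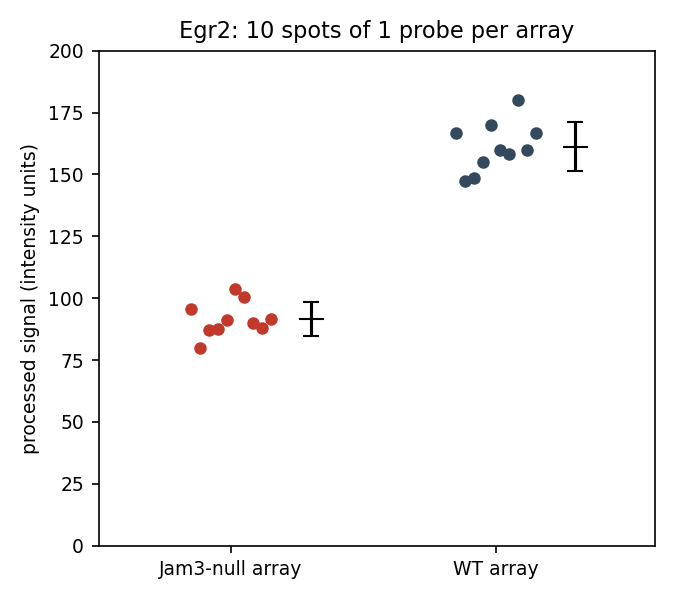
Processed signal of Egr2 in intensity units (vertical axis, from 0) for the 10 spots of its probe in Jam3-null cells and in WT cells, with the mean and SD over spots beside them in black. The Jam3-null spots lie between 79.9 and 103.7 and the WT spots between 147.5 and 180.2.

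Promoter sequences from RefSeq (GRCm38.p6) matched 7 of the 10 genes in 11 windows. Egr1, Egr3 and Ier2 were not matched. The 250 bases before the start are shown for Btg2, Ier3, Nr4a1, Nr4a2 and 1 of the 5 Egr2 starts, the measured genes with the largest differences and the NR4A gene of opposite direction, with motif matches in capitals. The motifs were the full cyclic AMP response element TGACGTCA, its half-site TGACG, the EGR sites GCGTGGGCG and GCGGGGGCG, the NR4A response element AAAGGTCA, and the CArG box that the serum response factor binds. All were searched on both strands, so a half-site on the other strand reads CGTCA, and the full element holds 2 overlapping half-sites.
Btg2, chr1:134079156-134079405, minus strand: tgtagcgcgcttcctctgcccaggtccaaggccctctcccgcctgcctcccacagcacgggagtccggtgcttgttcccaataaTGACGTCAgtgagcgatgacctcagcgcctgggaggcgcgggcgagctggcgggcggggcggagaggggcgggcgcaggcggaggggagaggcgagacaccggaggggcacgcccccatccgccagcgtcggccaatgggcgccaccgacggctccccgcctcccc
Ier3, chr17:35821463-35821712, plus strand: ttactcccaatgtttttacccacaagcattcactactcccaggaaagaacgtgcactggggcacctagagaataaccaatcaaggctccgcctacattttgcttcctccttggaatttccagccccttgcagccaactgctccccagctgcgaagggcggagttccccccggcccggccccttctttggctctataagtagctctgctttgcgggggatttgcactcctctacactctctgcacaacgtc
Nr4a1, chr15:101266596-101266845, plus strand: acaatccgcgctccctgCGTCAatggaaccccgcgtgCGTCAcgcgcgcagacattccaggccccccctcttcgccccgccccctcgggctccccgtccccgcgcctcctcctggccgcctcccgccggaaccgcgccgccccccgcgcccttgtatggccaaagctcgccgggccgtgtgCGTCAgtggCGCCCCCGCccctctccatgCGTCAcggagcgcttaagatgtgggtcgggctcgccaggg
Nr4a2, chr2:57124004-57124253, minus strand: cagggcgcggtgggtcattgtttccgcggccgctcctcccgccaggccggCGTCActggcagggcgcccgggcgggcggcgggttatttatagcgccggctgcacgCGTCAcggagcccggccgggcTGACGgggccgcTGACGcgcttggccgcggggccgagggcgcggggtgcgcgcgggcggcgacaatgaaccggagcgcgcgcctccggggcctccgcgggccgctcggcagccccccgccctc
Egr2, chr10:67537619-67537868, plus strand: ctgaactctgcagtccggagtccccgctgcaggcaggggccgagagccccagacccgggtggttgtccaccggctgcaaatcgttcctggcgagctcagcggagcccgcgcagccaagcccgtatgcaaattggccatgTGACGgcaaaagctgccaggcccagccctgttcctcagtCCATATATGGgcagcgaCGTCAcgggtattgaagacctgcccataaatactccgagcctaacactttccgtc

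Btg2 alone among the 7 genes held the full cyclic AMP response element, between 166 and 159 bases before its start, a match found in 1.55% of 32851 RefSeq windows of the same length. Half-sites were in 17.8% of all windows. Nr4a1 had 4 of them and Nr4a2 also had 4, while Egr2 had 2 in the window shown and none in 2 of its other windows. The unmeasured Nr4a3 had 4 and Btg1 had 2. An EGR site stood in Nr4a1, between 60 and 52 bases before the start, and 3.06% of all windows held one. Of the 5 Egr2 windows, 4 held a CArG box, at 2 different places in the genome, against 1.47% of all windows. The Ier3 window held no match to any of these motifs, and AAAGGTCA (in 1.34% of all windows) was in none of the 11. These matches describe letters in a window and are not measured sites of binding.

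Many other immediate early genes also had higher signals in Jam3-null cells. Of 36 on the array 35 were measured, with a median log2 difference of 1.04. At least 2-fold higher were 19, against 10.3% of all genes, and 0 were as far below, against 8.59%. At 1.5-fold, 25 were higher and 3 were lower, against 18.4% and 20.3% of all genes. Those with the largest differences were Zfp36l1 (2.51), which encodes an mRNA decay factor, the synaptic plasticity gene Arc (2.38), and the transcription factor genes Atf3 (2.19) and Klf6 (2.18). Atf3 had a signal of 571.0 in Jam3-null cells against 133.5 in WT cells, and Klf6 had 16758 and 3948 in the same order. Next came the kinase gene Plk3 (1.93), the MAP kinase phosphatase gene Dusp1 (1.75), Ier5 (1.53), the NF-kB regulator Nfkbiz (1.40), the kinase gene Sgk1 (1.36) and Klf4 (1.31). The rest past 2-fold were Fosb (1.30), Rhob (1.27), Zfp36 (1.24), Gadd45b (1.22), Junb (1.21), Nfkbia (1.10), Fosl2 (1.05), Klf10 (1.04) and Jun (1.03). Nfkbia, Fosl2, Klf10 and Jun lay within 1 error-model SD of the threshold, as did Phlda1 (0.99), Fos (0.98), Mcl1 (0.97) and Ccn1 (0.86, with an SD of 0.26) from below, these 4 named after their values were seen. Lower on the Jam3-null array by at least 1.5-fold were Zfp36l2 (-0.83), the ERK phosphatase gene Dusp6 (-0.68) and Ier5l (-0.68), named after their values were seen. The values of the list ran from -0.83 to 2.51, and 29 of the 35 were above 0, against 44.8% of all genes.

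**Figure D4:**
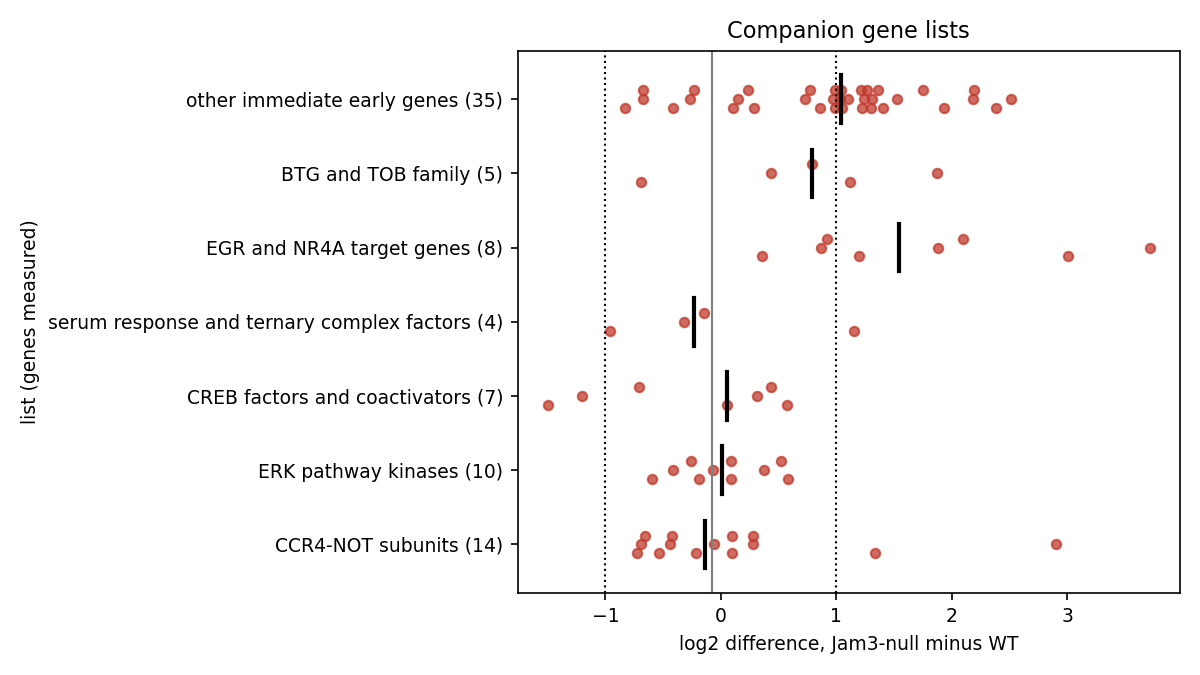
Log2 difference, Jam3-null minus WT (horizontal axis), of each measured gene in 7 lists (vertical axis, with the number of genes). Black bars mark list medians, the grey line the median of all genes (-0.07) and dotted lines 2-fold. The median of the 35 immediate early genes lies at 1.04, and that of the 10 ERK pathway genes lies at 0.01.

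Genes that carry a stimulus to such promoters are given beside the 10.3% of all genes that were at least 2-fold higher and the 8.59% that were lower by as much. The 10 genes of the ERK pathway had a median of 0.01, with 0 at least 2-fold higher or lower. The largest absolute values were -0.59 for Nras, 0.58 for Map2k1 and 0.52 for Braf, for which 4 of 6 probes had that direction. Of the serum response factor and its partners, the 4 measured genes had a median of -0.24. Mrtfa, a coactivator of the serum response factor, was 2.22-fold higher on the Jam3-null array (19755 against 9499 on the WT array), and Elk3 was at -0.96. Elk4 was at -0.32 by its brightest probe and at 0.11 by the mean of its 3 probes. Srf itself, named after its value was seen, was at -0.15. Of the CREB and MEF2 factors, 7 were measured with a median of 0.05, and 2 were at least 2-fold lower in Jam3-null cells. These were the CREB coactivator gene Crtc3 (2.82-fold lower, with 361.3 in Jam3-null cells against 1091 in WT cells) and Mef2d (-1.21), and Mef2c followed at -0.71. Crem was seen on the WT array only, with a bound of at least 3.07-fold lower in Jam3-null cells (1.62-fold after normexp correction).

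The list of deadenylase genes held CCR4-NOT, which BTG proteins engage, and Pan2 and Pan3, which form a separate deadenylase. Its 14 measured genes had a median of -0.14, and 2 of them, both higher in Jam3-null cells, passed 2-fold, against 10.3% of all genes higher and 8.59% lower. They were Tnks1bp1 (log2 difference 2.90, or 2.08 after normexp correction) and Cnot7, one of the catalytic subunits to which BTG proteins bind (1.34, with 783.6 in Jam3-null cells against 331.6 in WT cells). The third by size was Cnot10 (-0.73, with 2 of 3 probes lower). Cnot8, another subunit gene on the list, was at -0.22 with both of its probes lower, and was named after its value was seen. Of the other BTG partners, the arginine methyltransferase gene Prmt1 was 2.09-fold lower on the Jam3-null array (1795 against 4008 on the WT array). Pabpc1 was at -0.16 (0.14 with cyclic loess), and its 2 probes differed in sign.

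Genes known as targets of EGR or NR4A factors were higher on the Jam3-null array, but several are myeloid differentiation genes. Of 11 on the array 8 were measured, and Nab2 was detected only in Jam3-null cells. Fasl and Gpr132 gave no signal well above background in either genotype. All 8 measured were above 0, with a median of 1.54. At least 2-fold lower were 0, against 8.59% of all genes, and 5 were at least 2-fold higher, against 10.3%. These 5 were Itgam, the gene of a Mac-1 chain, a sort marker (3.71), the monocyte receptor genes Cd14 (3.01) and Csf1r (1.88), the death gene Bcl2l11 (2.10) and the cytokine gene Tnf (1.20). The 3 probes of Bcl2l11 disagreed, at 2.10, 1.11 and -0.29, and their mean of 0.97 was short of 2-fold. Counts of cell markers stand beside 10.3% of all genes at least 2-fold higher and 8.59% lower by as much. Markers of maturing neutrophils were also higher on the Jam3-null array. All 10 on the list were measured and at least 2-fold higher in Jam3-null cells, with a summed signal of 1507 times the 75th percentile there and 247.7 times on the WT array, and none was at background. Of 7 monocyte and macrophage markers 6 were measured, 3 of them 2-fold or more higher and 0 lower by as much. Mrc1 failed the well-above-background flag in both genotypes. Of the 6 measured, 4 were above 0, and Ly6c1 (-0.72) and Cd68 (-0.89) were below. The summed signals of the list were 70.2 in Jam3-null cells against 92.5 in WT cells. Most of each sum came from Ly6c1 (33674 in Jam3-null cells against 59347 in WT cells), so the sums mainly follow that 1 probe. All 3 measured mast cell and basophil markers were at least 2-fold lower, with summed signals of the 5 on the list of 3.65 in Jam3-null cells against 22.3 in WT cells. Of the markers of other cell types, 3 of 5 for T cells, 2 of 5 for B cells and 0 of 3 for NK cells were measured on both arrays, none of them 2-fold higher. The 3 measured T cell markers were all below 0, and Lck was 2.04-fold lower (55.7 in Jam3-null cells against 121.7 in WT cells). The T cell gene Cd3d and the NK cell gene Klrb1c were detected only in Jam3-null cells. Cd3d had 71.2 there against 13.3 in WT cells, at least 4.93-fold higher (1.94-fold after normexp correction, an alternative chosen after seeing the data for these markers). Klrb1c had 53.6 against 15.6, at least 3.68-fold higher (1.67-fold after normexp correction). The erythroid gene Hba-a1 was 3.31-fold higher and the platelet gene Gp9 was 4.23-fold higher. The megakaryocyte genes Pf4 and Itga2b were detected only in WT cells and were at least 2.24-fold and 3.75-fold lower in Jam3-null cells (1.35-fold and 1.85-fold after normexp correction). Pecam1 and Cxcl12, on the stroma and endothelium list, were 3.22-fold and 2.11-fold lower. The part of these cell markers in the values of the 10 genes was not tested. Kit, used in the sort, was at 0.09, and Jam3 itself gave no signal well above background in either genotype, so its signal did not check the genotype labels.

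By distance over log2 difference and mean signal on the 2 arrays, the genes most like Btg2 were Adam8, Armc3, Selenop, Plcb2 and Nfe2l2. Adam8, which encodes a metalloprotease of leukocytes, had 3953 in Jam3-null cells against 1168 in WT cells (log2 difference 1.85). Nfe2l2, which encodes the antioxidant regulator NRF2, had 3919 in Jam3-null cells against 1234 in WT cells (1.76). The other 3 lay between 1.78 and 1.89. With 2 arrays the measure holds nothing beyond these brightness and ratio values.

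**Figure D5:**
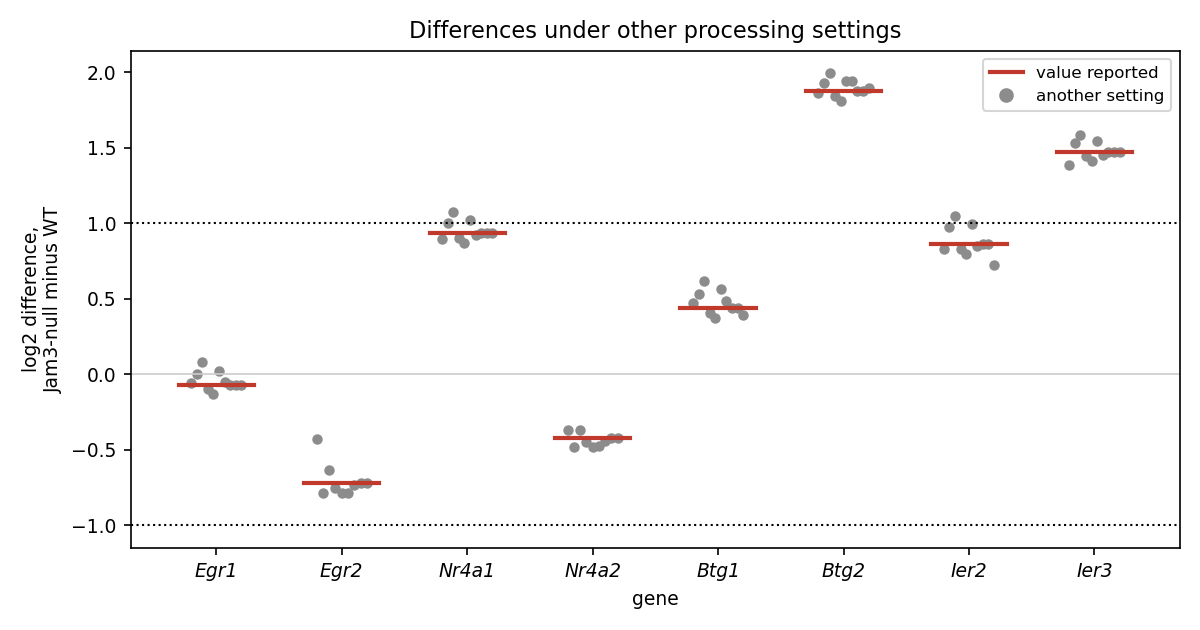
Log2 difference, Jam3-null minus WT (vertical axis), of the 8 measured genes (horizontal axis) as reported (red bars) and under each of up to 10 other processing settings (grey points). Some settings leave a gene's value unchanged by construction. Dotted lines mark 2-fold. Btg2 ranged from 1.81 to 1.99 and Ier3 from 1.39 to 1.58, past 2-fold under each, and the Egr1 points lie on both sides of 0.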

How the data were processed

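Total RNA of sorted cells was amplified and labelled with Cy3 in 1 colour, per the labels' protocols. Per the file headers, the scanner images became spot intensity values in Agilent Feature Extraction, version 10.7.3.1 (the submitters' processing notes say 10.7), with probes placed on mm9. The deposited processed intensity was background-subtracted and detrended within each array, and not normalized between arrays. Both arrays shared 1 slide and 1 scan, per the file headers. The authors' deposited value table holds log2 values that matched the log2 processed signals (r = 0.999 on each array); the sorted values of its columns differed by at most 0.00038, and their median was 5.66. No source used here states its normalization. Columns with nearly equal sorted values are what quantile normalization gives. The table served as an alternative, but is not a check separate from the quantile setting.

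From each log2 processed signal the 75th percentile of its array (non-control spots) was subtracted, and values were averaged over spots of a probe, after leaving out outlier flags (151 Jam3-null and 163 WT spots). A gene took its brightest probe, and entered the comparison if the probe passed the well-above-background flag in both genotypes. Probes were named by accession through RefSeq (27668), by an older symbol (471) or by the file (13035). Every member, the 5 genes nearest to Btg2 and list genes were named, the last when at least 2-fold apart, or the 3 with the largest absolute difference where fewer than 3 passed. The members, lists and alternatives were chosen with earlier results of these data known. A single array per genotype allows no test, so no p-value was computed. The gene-level step was tested on simulated data. R 4.3.3 with limma 3.58.1 and Python 3.11.15 with numpy 2.4.6, pandas 2.3.3 and matplotlib 3.10.9 were used.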

Additional observations from a re-analysis of the deposited data

How the results depend on the processing

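No paired analysis was possible because each genotype had 1 array, and no replicate could be left out. Btg2, Ier3, Nr4a1, Btg1 and Ier2 stayed above 0, and Egr2 and Nr4a2 below 0, in each of the 9 or 10 settings that gave them a value, and Egr1 turned sign in 3 of 10. Not all of these settings could change a value. A measured gene keeps its reported value with no filter on dim probes, and with the brighter genes alone if it is among them. So does a gene with 1 probe under the mean of its probes. Cyclic loess raised the median of all genes by 0.13 in log2. With it 4 of the 8 measured genes were at least 2-fold higher, Nr4a1 and Ier2 joining. Over all genes it gave 1758 higher and 985 lower, against 1473 and 1234 as reported. The balance turned with spike-in scaling (1353 higher, 1424 lower), with no filter on dim probes (2826 and 2920) and with the brighter genes alone (521 and 567). The count was 4 higher and 1 lower at 1.5-fold, and 1 higher at 3-fold. The median over the measured genes was 0.86 with no filter on dim probes, which adds Egr3 and Nr4a3 and raised the median of all genes by 0.22, and 0.90 with the brighter genes alone, which drops Egr2 and Nr4a2. With no filter the CREB list had a median of -0.33 and the EGR and NR4A targets 1.20. With the mean of a gene's probes the targets had 1.09 and the serum response factors -0.020. With the brighter genes alone the deadenylase list had -0.43. The immediate early genes kept a median between 0.97 and 1.18 in all 10 settings. Their number at least 2-fold higher, 19 as reported, ran from 13 with the brighter genes alone, which drops dimmer genes, to 23 with cyclic loess. Brightness limits Egr2, the one measured member whose value moved by more than its error-model SD (-0.43 after normexp correction), and gives no value for Egr3 and Nr4a3.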
